A study of Mus musculus with 6 samples.

Results

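The cytochrome P450 genes of families 1 to 4 were followed in mouse colon epithelium with and without the co-activators BCL9 and BCL9L. Members were chosen by name alone: a gene counted if the annotation of the array gave its probe set the single symbol Cyp, then 1 digit from 1 to 4, then a letter. This rule found 56 genes among 18193 and 69 probe sets among 45101, a probe set being the small group of short probes that reads a transcript. Another 4 probe sets carried several P450 symbols and were left out. Epithelium was taken from vil-Cre-Bcl9-/-/Bcl9l-/- mice (knockout, 3 arrays, pools of 3, 2 and 2 mice), in which vil-Cre drives recombination in intestinal epithelium. It was compared with epithelium of wildtype mice (wild type, 3 arrays, pools of 3 mice each). All mice were 12 weeks old and on a 129SvEv/C57BL/6/DBA/2 mixed background, and all cells were taken off the opened gut with EDTA and DTT, without a sort. The labels name vil-Cre for the knockouts and not for wild type, so the effects of Cre and of the deletions cannot be told apart.

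P450 enzymes are haem proteins of the endoplasmic reticulum that insert an oxygen atom into fat-soluble molecules, using electrons handed on by P450 reductase and cytochrome b5. Families 1 to 3 are best known for oxidising drugs, toxins, steroids and arachidonic acid, and family 4 for oxidising the far end of fatty acids and leukotrienes. Several of them are switched on by ligand-sensing transcription factors, namely the aryl hydrocarbon receptor (AhR), PXR, CAR and PPARalpha. In the gut they meet food and bacterial compounds before these reach the liver.

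The values were log2 expression from RMA, so a step of 1 is a 2-fold change. Levels of different probe sets were not compared as amounts. No detection calls were used, and 44 probe sets of olfactory receptor genes gave a guide to background: their 95th percentile was 4.54 in the knockouts and 4.67 in wild type. Wild type 6 stood apart from the other arrays, at 82.5 on a leading principal component with 40.2% of the variance, where the others lay between -34.4 and 9.54. All 12 epithelial markers, among them Epcam, Cdh1 and Vil1, were above the guide in both groups. Their summed level, the log2 of the sum of unlogged values, lay between 16.30 and 16.43 in the knockouts, against 16.37 to 16.40 in wild type. The brightest probe sets weigh most in summed levels, which are compared between arrays only. The 8 measured B and plasma cell markers had summed levels of 7.44 to 8.20 in the knockouts, against 8.26 to 11.8 in wild-type arrays, the highest in wild type 6. Of these markers Derl3 was above the guide in neither group. Probe sets of the targeted genes differed, knockout minus wild type, by 0.11 and -0.04 for Bcl9 and by 0.22, 0.15 and -0.20 for Bcl9l. The labels do not say whether any of them reads the deleted part, so they do not check the genotype.

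Most of the P450 genes were not above the guide. Of the 56 genes, 26 exceeded it in the knockouts and 23 in wild type, all 23 in both groups. Over all genes, 12927 of 18193 (71.1%) exceeded it in wild type, against 41.1% of the P450 genes. The 8 Cyp2d genes all exceeded it, as did 5 of 11 Cyp2c genes, 4 of 7 Cyp4f genes and 1 of 5 Cyp3a genes in each group. The remaining 30 genes were above the guide in neither group. Their probe sets and the dim second probe sets of brighter genes, 38 in all, lay between 1.99 and 5.46 in single arrays. Readings at this brightness are not shown to be above background, so a small difference between them says little about the transcript.

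No P450 gene passed the test between genotypes. limma called 0 of the 56 genes higher and 0 lower after Benjamini-Hochberg adjustment over all genes, where 0% of all genes were called. At an unadjusted p under 0.05 there were 2 members (3.57%), both higher in the knockouts, Cyp2d9 and Cyp4f13, against 4.71% of all genes in either direction and 2.69% higher. Groups did not overlap for 2 member genes (3.57%), Cyp4f13 and the dim Cyp2j5, against 10.3% of all genes. Among single probe sets 0 of 69 members were called, where 0% of all were, and groups did not overlap for 3 (4.35%), against 9.69% of all probe sets. These shares lie near or below the background. The median difference of the 56 genes was -0.02, with 25 above 0 and 31 below, and over all genes it was 0.0096, with 52.2% above 0. For the 26 genes above the guide in either group the median was 0.06, with 15 above 0, beside 0.03 over all genes above it.

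**Figure D1:**
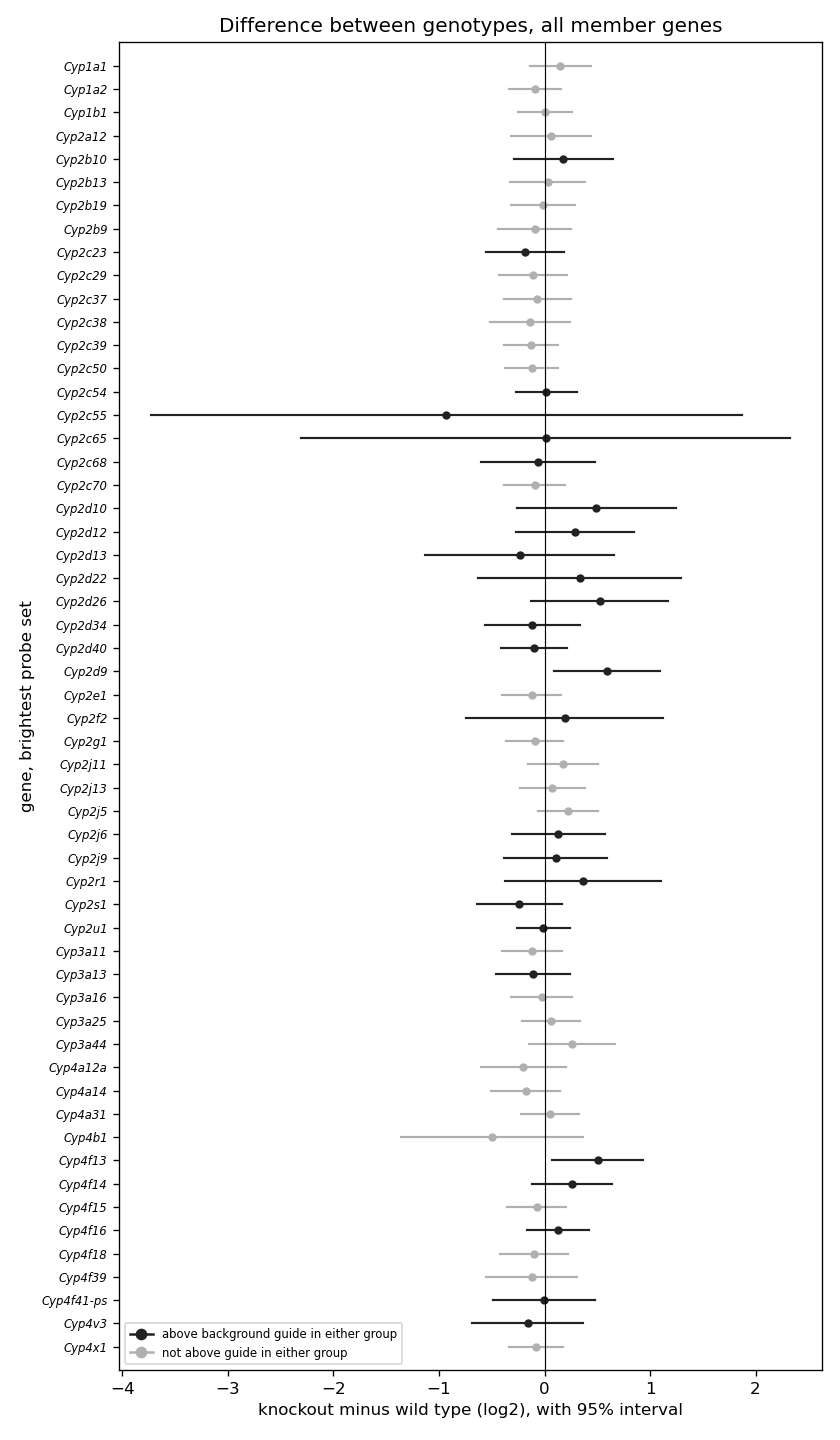
Difference between genotypes (knockout minus wild type, log2, x axis) for the brightest probe set of each of the 56 genes, with limma's 95% interval as a bar; black genes were above the background guide in either group and grey genes in neither. Only the intervals of Cyp2d9 and Cyp4f13 leave out 0, and those of Cyp2c55 and Cyp2c65 are the widest.

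The AhR targets of family 1 gave no signal above the guide. Cyp1a1, which oxidises polycyclic hydrocarbons and is the classic AhR target, read 2.88, 2.85 and 2.87 in the knockouts and 2.62, 2.91 and 2.63 in wild type. All 6 of these readings lie in the lowest part of the array, and the groups overlap. Cyp1a2, known from liver, averaged 3.83 ± 0.08 in the knockouts and 3.91 ± 0.06 in wild-type pools (SD, n = 3 each). Cyp1b1, an AhR target of connective tissue among other cells, had 3 probe sets that differed by 0.04, -0.33 and 0.0047. The probe set that differed by -0.33 read 2.18, 2.47 and 2.46 in the knockouts and 2.51, 2.74 and 2.84 in wild type, without overlap and below the guide (limma adjusted p = 0.991 over all probe sets). Of 10 fibroblast markers 8 had a mean below that of wild type in the knockouts, with summed levels of 8.77 to 9.72 in knockout arrays, against 9.32 to 10.4 in wild-type arrays. Lum, Pdgfra and Fbln2 were above the guide in neither group. The part of these cells in the Cyp1b1 value was not tested, and in pooled tissue fewer cells of a type and less RNA per cell cannot be told apart.

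Cyp2c55 and Cyp2c65 varied more between pools of one genotype than nearly any other transcript on the array. Cyp2c55 hydroxylates and epoxidises arachidonic acid and is a known colon P450 of the mouse. It read 9.48, 9.05 and 7.38 in the knockouts, against 10.4, 11.5 and 6.84 in wild type. Wild type 5 was the highest array and wild type 6 the lowest, so the wild-type values enclosed every knockout. Within wild type the highest pool exceeded the lowest 25.0-fold, and within the knockouts 4.30-fold. The difference between genotypes was -0.93 (95% interval -3.73 to 1.87, limma adjusted p = 0.971). It was 0.03 without wild type 5, -0.30 without knockout 3 and -2.29 without wild type 6, so single pools set its size and its sign. The within-genotype standard deviation of Cyp2c55 was 1.89, at the 99.92nd percentile of all probe sets.

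Cyp2c65, a related enzyme of the gastrointestinal tract and singled out here after its values were seen, showed a like split among wild-type pools. It read 6.55, 5.87 and 6.25 in the knockouts, against 6.03, 8.47 and 4.12 in wild type. Wild type 5 was again the highest array and wild type 6 the lowest, below the guide, a 20.4-fold range. The knockouts lay close together, with a 1.60-fold range. The difference was 0.01 (95% interval -2.30 to 2.33, limma adjusted p = 0.998), 1.14 without wild type 5 and -1.03 without wild type 6. Its probe set carries a suffix that marks probes able to read several related transcripts. The order of wild type 5 highest and wild type 6 lowest also held for Cyp2b10, Cyp2j9, Cyp4f14 and Cyp4f41-ps. Their wild-type ranges were 1.5- to 1.72-fold, and Cyp4f14 nearly tied with knockout 2. Of the wild-type arrays, wild type 6 was highest for Cyp2d9 and Cyp2d10, among others. Relative to 6-array means, the median of P450 genes above the guide in either group was -0.27 in wild type 6. It was -0.05 to 0.14 in the other arrays, and -0.07 in wild type 6 over all genes.

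The nearby gene Cyp2c68 did not share the spread of Cyp2c55 and Cyp2c65. It read 10.2, 10.2 and 9.66 in the knockouts and 10.3, 10.3 and 9.70 in wild type. The highest and the lowest pool differed 1.49-fold in the knockouts and 1.52-fold in wild type, and the groups overlap. Cyp2c23, an epoxygenase of arachidonic acid, averaged 5.74 ± 0.25 in the knockouts and 5.93 ± 0.12 in wild-type pools (SD, n = 3 each). Cyp2c54 averaged 4.72 in the knockouts and 4.70 in wild type, just above the guide. The other 6 Cyp2c genes (Cyp2c29, Cyp2c37, Cyp2c38, Cyp2c39, Cyp2c50 and Cyp2c70), known mainly from liver, were below the guide and differed by -0.14 to -0.067.

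The bases before the start sites of these 3 Cyp2c genes are shown for their unlike ranges. Of these genes, 2 were highest and lowest in the same wild-type pools, with a wide range, and the third had a narrower range than these 2. They come from RefSeq (GRCm38.p6), each 250 bases long and ending just before the most upstream start site of that table, 5′ to 3′ on the strand of the gene. They lie at chr19:39006769-39007018 on the plus strand for Cyp2c55, chr19:39060756-39061005 on the plus strand for Cyp2c65 and chr19:39741102-39741351 on the minus strand for Cyp2c68. Capitals mark matches on either strand to the motifs named after them.
Cyp2c55: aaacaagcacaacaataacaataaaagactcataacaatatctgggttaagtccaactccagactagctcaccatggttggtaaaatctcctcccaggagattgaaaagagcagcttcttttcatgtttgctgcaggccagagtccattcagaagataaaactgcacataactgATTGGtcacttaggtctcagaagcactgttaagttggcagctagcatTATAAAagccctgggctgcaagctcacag
Cyp2c65: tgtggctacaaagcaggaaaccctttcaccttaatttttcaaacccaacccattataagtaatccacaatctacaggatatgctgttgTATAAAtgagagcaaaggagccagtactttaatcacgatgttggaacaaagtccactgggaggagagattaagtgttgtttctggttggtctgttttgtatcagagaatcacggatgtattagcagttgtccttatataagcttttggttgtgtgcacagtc
Cyp2c68: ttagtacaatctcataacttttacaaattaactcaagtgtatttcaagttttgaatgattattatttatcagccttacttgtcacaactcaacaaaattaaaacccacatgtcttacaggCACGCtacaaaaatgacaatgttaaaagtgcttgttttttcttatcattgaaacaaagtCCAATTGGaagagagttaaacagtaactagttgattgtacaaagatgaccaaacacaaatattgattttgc

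The motif TATAAA begins 29 bases before the start site of Cyp2c55 and 162 bases before that of Cyp2c65, and has no match for Cyp2c68. It occurs in 13% of 27025 such windows and in 39.5% of the windows of the 43 P450 genes found in the table. The CCAAT box (CCAAT) has 1 match for Cyp2c55, 0 for Cyp2c65 and 2 overlapping ones for Cyp2c68, and occurs in 34.5% of all windows and 39.5% of those of P450 genes. The AhR core (GCGTG) has a match for Cyp2c68 alone of the 3, and occurs in 28.3% of all windows and 23.3% of those of P450 genes. The nuclear receptor core AGGTCA and the TCF core CTTTGAT have no match in the 3 windows, and occur in 13.8% and 3.26% of all windows and in 25.6% and 4.65% of those of P450 genes. These are matches of letters, not sites shown to be bound.

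**Figure D2:**
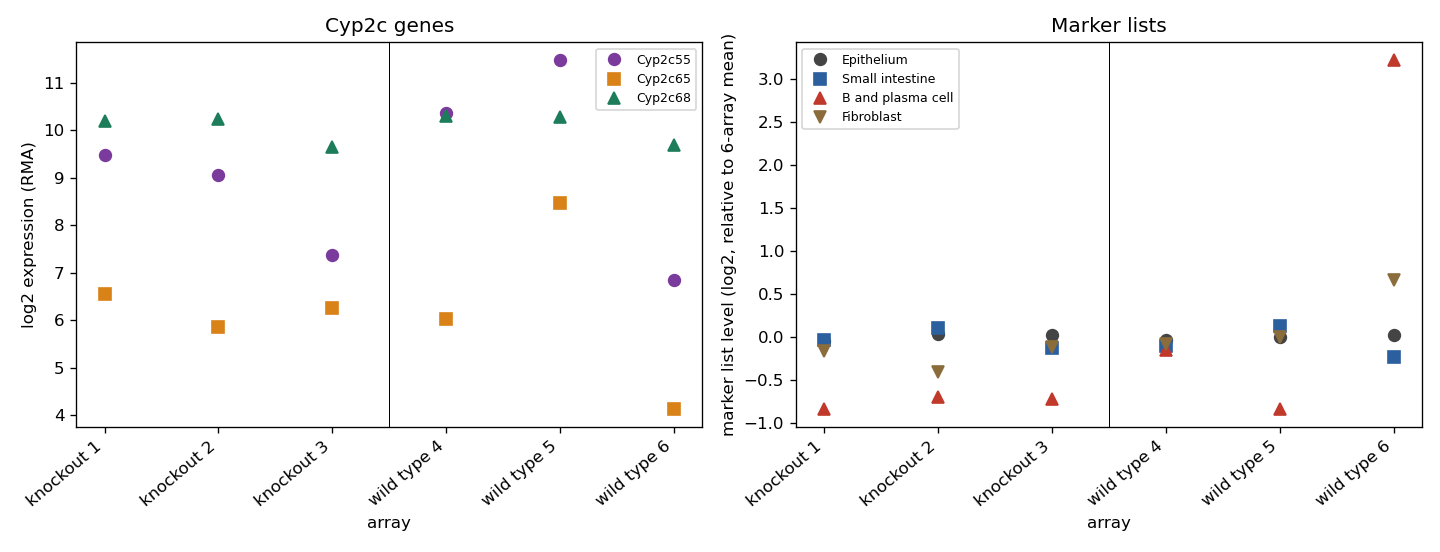
Left, log2 expression of Cyp2c55, Cyp2c65 and Cyp2c68 in each array (x axis), knockouts left of the line and wild type right of it; Cyp2c55 and Cyp2c65 are highest in wild type 5 and lowest in wild type 6. Right, the level of 4 marker lists in the same arrays, as the median over the list of each gene's log2 value relative to its 6-array mean; the B and plasma cell list reaches 3.22 in wild type 6.

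Markers of other cells were set beside the 2 variable genes. Wild type 6, where both were lowest, had the highest B and plasma cell level (3.22, against -0.84 to -0.14 in the other 5 arrays). By the same median, T cell (0.63), fibroblast (0.66), macrophage and neutrophil (0.41), smooth muscle (0.33) and endothelial (0.12) levels were also highest there. The smooth muscle level was 0.32 in wild type 4, and the endothelial level 0.085 in wild type 5. By summed level, smooth muscle was lower in wild type 6 (10.6) than in wild type 4 (10.8) and wild type 5 (10.7). The endothelial markers Cdh5, Kdr, Flt1, Tek and Emcn were above the guide in neither group. The same held for Adgre1, Itgam, Csf3r and Mpo of macrophages and neutrophils and for Actg2 of smooth muscle. Of the 10 T cell markers 10 had a knockout mean below that of wild type (median -0.65), and 0 passed, with summed levels of 8.65 to 9.47 in knockout arrays, against 9.43 to 9.98 in wild-type arrays. The epithelial level of wild type 6 was 0.03, within the range of the other arrays (-0.05 to 0.04). Cdx2 (10.9) and Car1 (12.52, beside 12.53 in knockout 3) were lowest in that array. Slc26a3 (12.6) and Aqp8 (10.991, beside 10.975 in knockout 3) were highest there. The 9 measured genes of small intestinal enterocytes had summed levels of 13.1 to 13.2 in knockout arrays, against 13.2 to 13.7 in wild-type arrays. The sum was highest in wild type 5, as were Fabp2 (12.9) and Alpi (7.16). Fabp6 (10.5) and Slc5a1 (11.473, beside 11.482 in wild type 4) were lowest in wild type 5. By the median the level was 0.13 in wild type 5 and 0.11 in knockout 2, and Treh was above the guide in neither group. The 9 measured liver markers had a median level of -0.09 in wild type 6, within the range of the other arrays (-0.12 to 0.15). Their summed levels were 11.6 to 11.8 in knockout arrays and 11.7 to 12.0 in wild-type arrays, and Apoh was above the guide in neither group. The part of these lists in the Cyp2c values was not tested.

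**Figure D3:**
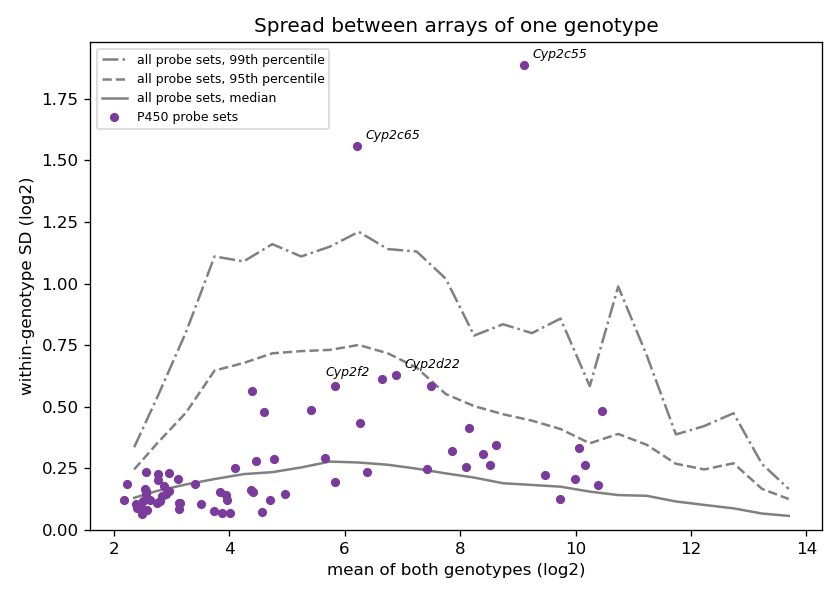
Within-genotype standard deviation (log2, y axis) of the 69 P450 probe sets against their mean over both genotypes (x axis), with the median, 95th and 99th percentile of all probe sets at like levels as lines. Cyp2c55 at 1.89 and Cyp2c65 at 1.56 stand above the 99th percentile line.

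Among the 31 P450 probe sets above the guide in either group, 4 (12.9%) had a within-genotype standard deviation over the 95th percentile of the array whatever the level, beside 6.06% of all probe sets above the guide. The other two were Cyp2d22 (0.63) and Cyp2f2 (0.61). Set against probe sets at like levels, both lay below the 95th percentile line, and Cyp2d10 (0.48) lay above it with Cyp2c55 and Cyp2c65.

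All 8 Cyp2d genes were above the guide in both groups. Cyp2d enzymes oxidise many basic drugs, and the human counterpart is CYP2D6. Cyp2d9, a testosterone 16-alpha-hydroxylase of male mouse liver, read 8.71, 8.93 and 8.42 in the knockouts and 7.97, 7.83 and 8.49 in wild type. Knockouts 1 and 2 lay above every wild-type pool, but knockout 3 lay just below wild type 6, so the groups overlap. The difference was 0.59, or 1.51-fold (SE 0.21, unadjusted p = 0.0279, limma adjusted p = 0.953), and without single arrays it ran from 0.46 to 0.79. It did not pass over all genes.

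Over all 8 Cyp2d genes, Cyp2d9 included, 5 differences were above 0 and 3 below, with a median of 0.31. Cyp2d10 read 11.0, 10.5 and 10.6 in the knockouts and 10.0, 9.72 and 10.9 in wild type, a difference of 0.49 (SE 0.32, limma adjusted p = 0.953). Wild type 6 lay inside the knockout values, and without it the difference was 0.85, against 0.24 without wild type 5. Cyp2d26 read 8.68, 8.77 and 7.83 in the knockouts and 8.20, 7.68 and 7.83 in wild type, a difference of 0.52 (SE 0.27, limma adjusted p = 0.953). Knockout 3 sat at the level of wild type, and without it the difference was 0.82. Cyp2d12 read 8.79, 9.21 and 8.27 in the knockouts and 8.60, 8.46 and 8.35 in wild type, with overlap. Cyp2d34 read 10.2, 10.4 and 9.75 in the knockouts and 10.3, 10.0 and 10.3 in wild type, with a difference of -0.12. Cyp2d40, the dimmest of the group, averaged 4.92 ± 0.12 and 5.02 ± 0.17 (knockout and wild type, SD, n = 3 each).

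For 2 Cyp2d genes the probe sets differed in sign. Cyp2d22, proposed as the mouse counterpart of CYP2D6, read 7.96, 6.94 and 6.25 in the knockouts and 6.99, 6.55 and 6.62 in wild type on its brighter probe set, a difference of 0.33. The 3.27-fold range among knockouts came from knockout 1, and without that array the difference was -0.12. Its other probe set differed by -0.03. Cyp2d13, a transcribed pseudogene in RefSeq, read 7.29, 7.995 and 6.87 in the knockouts and 7.91, 6.93 and 8.02 in wild type on the brighter probe set (-0.24) and differed by 0.10 on the other. The Cyp2d genes are close copies of each other, so a probe set may read more than one of them.

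**Figure D4:**
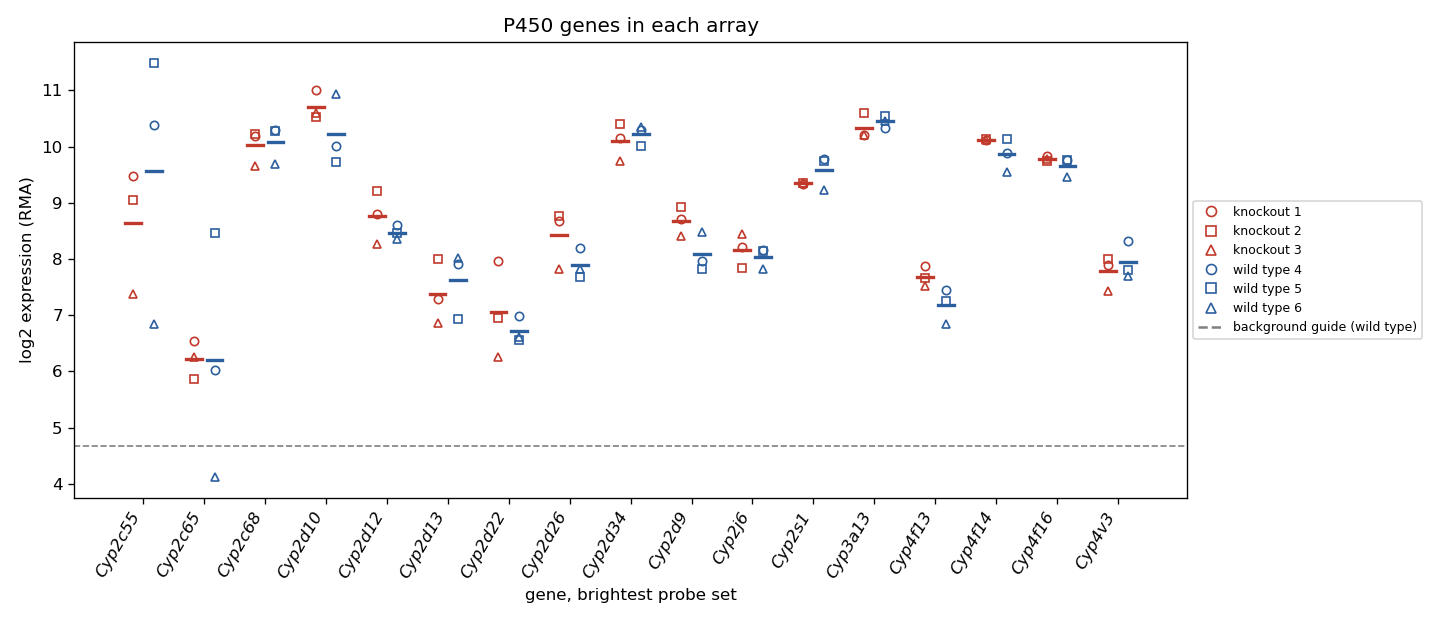
Log2 expression (y axis) of 17 P450 genes, brightest probe set each, in the 3 knockout arrays (red, left) and 3 wild-type arrays (blue, right); each symbol is one array, short bars are means, and the dashed line is the background guide for wild type. Groups overlap for every gene shown but Cyp4f13, and Cyp2c55 has the largest spread.

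Of the remaining family 2 genes, Cyp2s1, Cyp2j6 and Cyp2f2 were among those above the guide. Cyp2s1, an AhR-inducible P450 of epithelia outside the liver, read 9.33, 9.36 and 9.35 in the knockouts and 9.79, 9.75 and 9.22 in wild type. The knockouts differed by no more than 1.02-fold, while wild type 6 lay below them and the other wild-type pools above. The difference was -0.24 (SE 0.17, limma adjusted p = 0.954), -0.14 without wild type 4 and -0.42 without wild type 6. Cyp2j6, of the Cyp2j epoxygenases, read 8.22, 7.84 and 8.45 in the knockouts and 8.16, 8.14 and 7.82 in wild type, a difference of 0.13 with overlap. Its dimmer probe set differed by 0.41 (95% interval -0.49 to 1.32). Cyp2j9, above the guide in both groups, averaged 5.71 ± 0.12 in the knockouts and 5.61 ± 0.39 in wild-type pools (SD, n = 3 each). Of the 5 Cyp2j genes 0 passed, and 3 (Cyp2j5, Cyp2j11 and Cyp2j13) were above the guide in neither group.

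Cyp2f2, the naphthalene-activating P450 of mouse lung, averaged 6.75 ± 0.72 in the knockouts and 6.56 ± 0.48 in wild-type pools (SD, n = 3 each). Cyp2r1, a vitamin D 25-hydroxylase, averaged 4.78 ± 0.41 and 4.42 ± 0.54 (knockout and wild type), and Cyp2u1, which oxidises long-chain fatty acids, 4.57 ± 0.05 and 4.58 ± 0.09. Both passed the guide in the knockouts and not in wild type, where the guide itself was higher. Cyp2b10, the classic CAR target, passed in the knockouts on 1 of 3 probe sets (4.55 ± 0.16, against 4.37 ± 0.36 in wild type). Cyp2e1, the ethanol-oxidising P450 of liver, Cyp2a12, Cyp2g1, Cyp2b9, Cyp2b13 and Cyp2b19 were below the guide in both groups.

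Family 3 was represented above the guide by Cyp3a13 alone. Cyp3a enzymes oxidise a large share of drugs, and Cyp3a13 is the member known from mouse intestine. It read 10.2, 10.6 and 10.2 in the knockouts and 10.3, 10.5 and 10.5 in wild type. The groups overlap, and the difference was -0.11 (95% interval -0.46 to 0.24, limma adjusted p = 0.972). The liver form Cyp3a11, a PXR target, averaged 2.45 ± 0.07 in the knockouts and 2.57 ± 0.15 in wild type, below the guide, as were Cyp3a16, Cyp3a25 and Cyp3a44.

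In family 4 the bright genes were Cyp4f14, Cyp4f16, Cyp4f13 and Cyp4v3. The Cyp4f enzymes hydroxylate leukotriene B4 and other fatty acids. Cyp4f13 read 7.87, 7.66 and 7.53 in the knockouts and 7.44, 7.25 and 6.84 in wild type. All 3 knockouts lay above all wild-type pools, by a narrow margin between knockout 3 and wild type 4. The difference was 0.50, or 1.42-fold (SE 0.18, unadjusted p = 0.0277, limma adjusted p = 0.953), so it did not pass. It was 0.34 without wild type 6 and 0.41 without knockout 1.

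The related genes Cyp4f14 and Cyp4f16 gave smaller differences, and whether these differ from that of Cyp4f13 was not tested. Cyp4f14 read 10.1, 10.1 and 10.1 in the knockouts and 9.90, 10.1 and 9.56 in wild type, a difference of 0.26 (SE 0.16). Wild type 5 matched the knockouts and wild type 6 was lowest. Cyp4f16 read 9.84, 9.75 and 9.78 in the knockouts and 9.76, 9.77 and 9.46 in wild type, a difference of 0.12, and its other probe set differed by 0.04. The pseudogene Cyp4f41-ps averaged 4.78 in both groups. Cyp4f18, which inactivates leukotriene B4 in mouse neutrophils, was below the guide in both groups, as were Cyp4f15 and Cyp4f39.

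Cyp4v3, the mouse counterpart of the retinal fatty acid hydroxylase CYP4V2, had 2 probe sets of opposite sign. The brighter read 7.90, 8.01 and 7.44 in the knockouts and 8.33, 7.80 and 7.69 in wild type, a difference of -0.16. The dimmer read 5.75, 5.71 and 5.47 in the knockouts and 5.81, 5.32 and 4.48 in wild type, which differed by 0.44 (95% interval -0.33 to 1.21), with wild type 6 lowest. Neither passed. Cyp4b1 read 4.54, 3.89 and 3.99 in the knockouts and 4.33, 5.46 and 4.13 in wild type, and of the wild-type arrays wild type 5 alone lay above the guide. The PPARalpha targets Cyp4a12a, Cyp4a14 and Cyp4a31, and Cyp4x1, were below the guide in both groups.

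The partners and regulators of these enzymes did not pass either. Of 9 measured partner genes 0 were called, with 5 above 0 and a median of 0.02. The gene of P450 reductase is not among these 9. Cyb5b, a cytochrome b5 of the outer mitochondrial membrane, had the smallest unadjusted p of them. It read 11.0, 10.9 and 11.0 in the knockouts and 10.6, 10.5 and 10.6 in wild type, without overlap (0.42, SE 0.10, unadjusted p = 0.0051, limma adjusted p = 0.953). Groups did not overlap for the partner Cyb5r3 either (0.18, SE 0.11), nor for 10.3% of all genes. Cyb5a, the microsomal cytochrome b5 that passes electrons to P450 enzymes, differed by 0.09 (SE 0.20). Ephx1 and Ephx2, which open the epoxides that P450 enzymes make, differed by 0.02 (SE 0.14) and -0.04 (SE 0.17).

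Of 11 regulators and AhR target genes 0 were called, with 6 above 0 and a median of 0.0026. Ahr averaged 7.07 ± 0.02 in the knockouts and 7.01 ± 0.28 in wild-type pools (SD, n = 3 each). Its target Ahrr was below the guide in both groups, like Cyp1a1, while Tiparp, another target, averaged 7.48 ± 0.19 and 7.60 ± 0.35 (knockout and wild type). Nr1i2, which encodes PXR, differed by 0.27 (SE 0.13), Nr1i3, which encodes CAR, by 0.22 (SE 0.26), and Ppara by -0.58 (SE 0.36). None of these passed (limma adjusted p = 0.953 to 0.987).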

How the data were processed

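Expression was measured on 6 Affymetrix Mouse Genome 430 2.0 arrays, 3 per genotype. Per the labels' protocols, RNA of 2 or 3 mice was pooled per array and 30 ng went into amplification with NuGEN WT-Ovation pico, which can read low transcripts unevenly. The deposited values are log2 expression made by the authors with RMA, a background-corrected, quantile-normalized probe summary, per the submitters' processing notes. No version is named there. Values ran from 1.78 to 14.4. Detection calls and dates of scanning were not used. Arrays have no read depth, and their number limits the precision.

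Each array is a separate pool, so p-values measure the spread between pools. After 64 control probe sets were left out, 45037 probe sets were tested, and 18193 genes with 1 symbol, each by the probe set with the highest 6-array mean. The 932 probe sets with several symbols and the 9211 unnamed ones entered only the probe set test. All 56 P450 genes matched RefSeq by gene number, and 0 symbols needed updating. Knockout was compared with wild type by a two-sided test without covariates in limma 3.58.1 (R 4.3.3; lmFit, then eBayes), with Benjamini-Hochberg adjustment over all genes or all probe sets and a threshold of 0.05. Gene values come from the gene test, values of second probe sets from the probe set test. On simulated data with 200 of 18193 genes changed, 55.8% of 2-fold and 90.2% of 4-fold changes were recovered, with 4.75% of calls false. Noise was drawn independently for each gene, without shifts shared by an array. The Benjamini-Hochberg cut loosens as more genes pass, and the planted changes were 2-, 4- and 8-fold. In the real data 0 of 18193 genes passed, so the cut there was stricter and the rates may overstate recovery. The within-genotype standard deviation has a median of 0.19 over all genes, and 0.29 for the 26 P450 genes above the guide in either group. The rates may therefore not hold for those 26.

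The members, lists and tests were chosen with earlier results of these data known. Values in every array were to be given for probe sets with an unadjusted p under 0.05, for genes whose probe sets above the guide differ in sign, and for genes whose wild-type mean reached the 75th percentile of all probe sets. Cyp1a1, Cyp1b1, Cyp2c65, Cyp4b1 and Cyb5b are given in full outside that rule. Alternatives were averaging a gene's probe sets, dropping _x_at and _s_at probe sets, filters on dim probe sets, array weights, cyclic loess, a robust fit with an intensity trend, and leaving out each array.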

Additional observations from a re-analysis of the deposited data

How the results depend on the processing

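No paired analysis was possible because the replicate numbers of the labels are not shared between genotypes. No P450 gene passed under any of the 13 alternatives (limma, lowest adjusted p 0.579). Over all genes and over all probe sets the count stayed at 0 except without wild type 6, where 3 genes and 3 probe sets passed, so leaving out single arrays gave 0 to 3. The median difference of P450 genes was 0.115 with genes brighter than the array median, against -0.0219 over all 56, where fewer genes enter; without single arrays it ran from -0.0746 to 0.0301. Of 220 values of the 17 genes plotted by array, 202 kept their sign. Cyp4v3 turned to 0.141 with the mean of its probe sets and 0.441 without _x_at and _s_at probe sets, which leaves its dimmer probe set. Cyp2c65 turned to -0.343 with array weights and -0.0203 with cyclic loess, and the cause was not tested. Leaving out single arrays gave -2.29 to 0.0296 for Cyp2c55, -1.03 to 1.14 for Cyp2c65, -0.261 to 0.121 for Cyp2c68, -0.582 to 0.0226 for Cyp2d13, -0.122 to 0.732 for Cyp2d22, -0.267 to 0.0602 for Cyp2d34, -0.0106 to 0.293 for Cyp2j6 and -0.283 to 0.0369 for Cyp4v3. With array weights Cyp2c55 was -1.78. The number of P450 probe sets above the guide in wild type was 28, and 27 to 34 with a lower guide (the 90th percentile), cyclic loess or without single wild-type arrays, settings chosen after seeing the data. With 3 arrays per group, and a spread such as that of Cyp2c55, large differences could be missed.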
